A study of Mus musculus with 40 samples.

Results

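The 8 lines described here are 4T1 mouse mammary carcinoma cells, each carrying 1 short hairpin RNA: 4 directed against Slpi (Slpi1U1, Slpi1U2, Slpi2 and Slpi4) and 4 directed against Mgp (Mgp1, Mgp1U1, Mgp1U3 and Mgp2). They were chosen by hairpin name, as designs of the shERWOOD algorithm, and make up 8 of the 10 hairpins and 16 of the 20 data columns of the series, with 2 columns per hairpin. That these 8 are shERWOOD designs was inferred from their gene-based names and is not a label. The hairpins with catalogue numbers, 66708 and 88943, were left out of the comparison. Per the labels' protocols, hygromycin at 500 µg/ml was used to select all 8 lines, over some 10 days, after infection at an MOI (multiplicity of infection) of 0.3, so both sides share the cell line, the infection and the drug. The study set out to measure off-target changes by comparing hairpins within a target; the question here is how lines aimed at Slpi and lines aimed at Mgp differ from each other.

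A short hairpin RNA is transcribed as a stem-loop, is cut by Dicer and is loaded onto an Argonaute protein, which then silences mRNAs with matching sequence. Slpi encodes secretory leukocyte protease inhibitor, a small secreted protein that blocks neutrophil elastase and cathepsin G and is made by many epithelia. Mgp encodes matrix Gla protein, a secreted vitamin K-dependent protein that restrains calcification and binds bone morphogenetic proteins (BMPs). 4T1 cells come from a mammary tumour of a BALB/c mouse and are used as a model of metastatic breast cancer.

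The labels list 32 samples for these hairpins, 4 for each, while the tables hold 2 columns for each, which are not tied to single samples. The mean of the 2 columns was used as the value of a hairpin, and the 4 hairpins of a side were the replicates (n = 4 each). Levels are in CPM, read counts put on a common library size, with the scaling made jointly over all 20 columns. CPM does not correct for gene length, so levels are set against each other only for the same gene. Every difference is the mean log2(CPM + 0.5) of the Slpi-directed hairpins minus that of the Mgp-directed hairpins, with its standard error (SE). A gene was called at a limma adjusted p under 0.05, two-sided. The pseudocount of 0.5 CPM makes the difference understate the change of weakly expressed genes. No line without a hairpin and no hairpin to another gene was measured among these lines, so a gene that is higher on the Slpi-directed side could equally be written as lower on the Mgp-directed side. Each side also comes from its own deposited table, so any difference in how the tables were made cannot be told apart from the target. The p-values measure the spread between hairpin lines. Within each list of hairpin values below, the order is Slpi1U1, Slpi1U2, Slpi2 and Slpi4, then Mgp1, Mgp1U1, Mgp1U3 and Mgp2.

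The 8 Slpi-directed columns held 12.2 to 20.4 M reads and the 8 Mgp-directed columns 12.1 to 22.9 M, so depth overlapped. The ribosomal RNA precursor Rn45s took 1.27% to 1.87% of reads on the Slpi-directed side and 0.961% to 2.39% on the Mgp-directed side. All 7 markers of mammary carcinoma cells were above 1 CPM, with a sum of 1965 to 2081 CPM in the Slpi-directed lines and 1635 to 1765 CPM in the Mgp-directed lines. The defining markers of fibroblasts, leukocytes, endothelium, fat and muscle stayed under 1 CPM apart from Pdgfra, Cd68 and Acta1. Small nucleolar and Cajal body RNA genes summed to 209 to 239 CPM in Slpi-directed columns and 310 to 354 CPM in Mgp-directed columns, without overlap. The ratio of effective to total reads after joint scaling was 1.016 to 1.043 on the Slpi-directed side and 0.951 to 0.975 on the Mgp-directed side, again without overlap. Genes with reads numbered 15831 to 17793 in Slpi-directed columns and 15114 to 15808 in Mgp-directed columns, also without overlap. These library measures move with the target, and their part in the results below was not tested.

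Each side had less of the transcript its hairpins were aimed at. Slpi (chr2:164354070-164356507, mm10) stood at 46.5, 53.5, 47.4 and 59.8 CPM in the Slpi-directed lines, against 465, 476, 614 and 512 CPM in the Mgp-directed lines. The 2 ranges were far apart, and the Slpi-directed hairpins lay close to each other. Slpi averaged 51.8 ± 6.17 CPM in Slpi-directed lines and 516.7 ± 68.2 CPM in Mgp-directed lines (SD, n = 4 each), or 10.0% of the Mgp-directed level. The difference was −3.30 ± 0.09 (SE; limma, adjusted p = 8.72e-11), a 9.87-fold lower level.

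Mgp (chr6:136872435-136875823, mm10) stood at 20.2, 15.5, 15.0 and 29.4 CPM in the Slpi-directed lines, against 2.90, 8.63, 1.21 and 2.05 CPM in the Mgp-directed lines. No Mgp-directed line reached the lowest Slpi-directed line, but Mgp1U1 kept several times more Mgp mRNA than the other 3. Mgp averaged 20.04 ± 6.68 CPM in Slpi-directed lines and 3.70 ± 3.36 CPM in Mgp-directed lines (SD, n = 4 each). The difference was 2.54 ± 0.38 (SE; limma, adjusted p = 1.27e-04), a 5.81-fold higher level, and the Mgp-directed mean was 18.4% of the Slpi-directed mean. An exact permutation test over the 8 hairpins gave p = 0.0286 for each target gene, two-sided, which is the smallest value that 70 splits of 4 against 4 allow. The hairpin sequences and the positions they pair with were not used here.

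**Figure D1:**
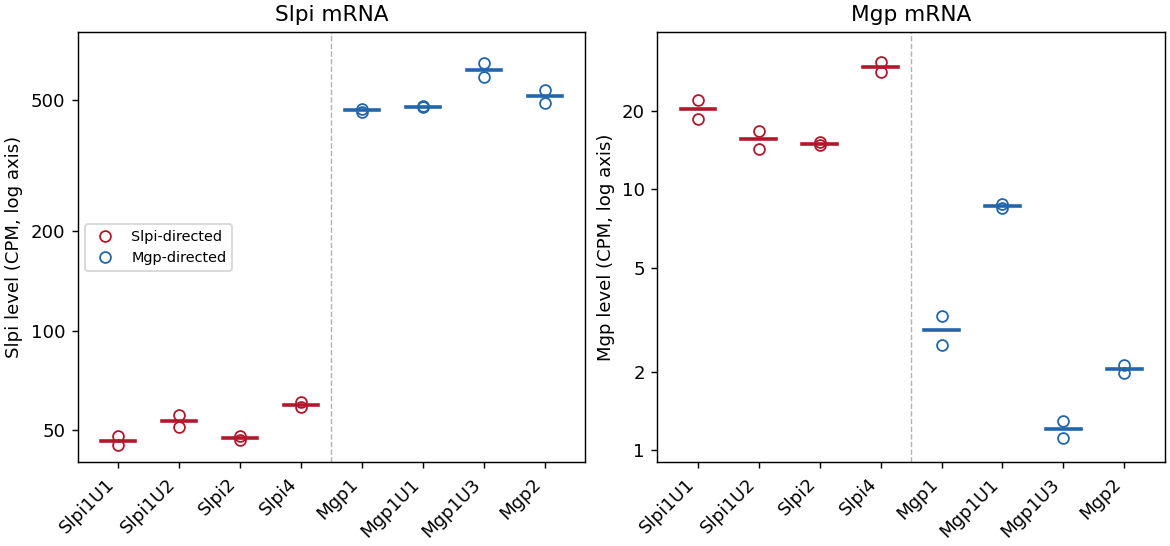
Levels of Slpi mRNA (left panel) and Mgp mRNA (right panel) in CPM on a log axis, for the 4 Slpi-directed and the 4 Mgp-directed hairpins; open circles are the 2 columns of a hairpin and bars their mean. Slpi lies between 46.5 and 59.8 CPM in the Slpi-directed lines and between 465 and 614 CPM in the Mgp-directed lines, and Mgp1U1, at 8.63 CPM, keeps the most Mgp among the Mgp-directed lines.

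The genes annotated next to the targets gave little to compare. Beside Slpi, the seminal vesicle genes Svs6 and Svs5, the matrilin gene Matn4 and the transcription factor gene Rbpjl were all under 1 CPM on both sides. Beside Mgp, BC049715, Art4 and Erp27 were also under 1 CPM. Arhgdib, a gene near Mgp, stood at 10.6, 10.3, 12.4 and 14.5 CPM in Slpi-directed lines, against 7.72, 11.2, 9.01 and 8.05 CPM in Mgp-directed lines. Its difference was 0.39 ± 0.12 (SE; limma, adjusted p = 0.0174), although the ranges overlapped, and it missed the threshold without Mgp1 (adjusted p = 0.0557) or without Slpi4 (adjusted p = 0.0571).

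The 2 sides formed separate groups of profiles. The root mean square (RMS) difference of log2(CPM + 0.5) over the 11756 tested genes was 0.145 to 0.206 between the 2 columns of a hairpin (8 pairs). It was 0.152 to 0.190 between different Slpi-directed hairpins (6 pairs). Between different Mgp-directed hairpins it was 0.181 to 0.225 (6 pairs). Every one of the 16 pairs across the sides was farther apart, at 0.333 to 0.427. A hairpin value is the mean of 2 columns and carries less noise than a single column, so distances between hairpins and between columns are not on the same footing.

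**Figure D2:**
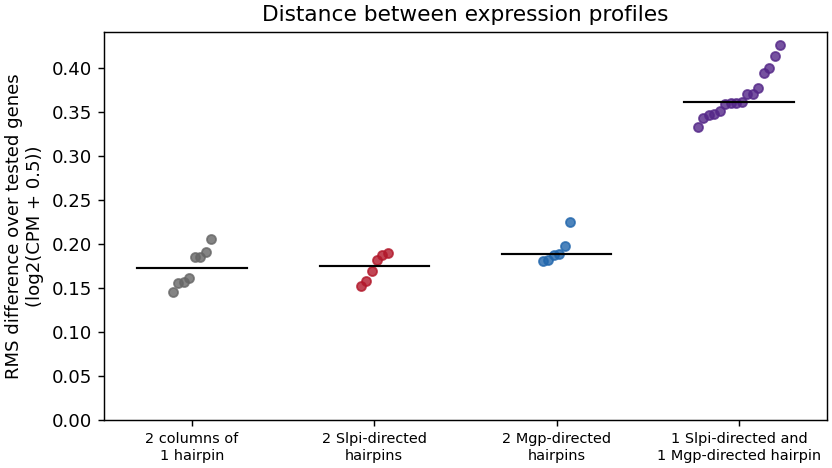
RMS difference of log2(CPM + 0.5) over tested genes for pairs of columns or hairpins; each point is a pair and the line is the median. Medians are 0.173 for the columns of a hairpin, 0.175 for Slpi-directed pairs, 0.188 for Mgp-directed pairs and 0.361 for pairs across the sides, whose points all lie above the rest.

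Of the 11756 genes tested, 5994 were called (51%), 2902 higher (24.7%) and 3092 lower (26.3%) on the Slpi-directed side. The hairpin values of the sides did not overlap for 2539 genes with the Slpi-directed side above (21.6%) and for 2783 with it below (23.7%). Of the called genes, 2400 higher and 2621 lower ones also had separate hairpin values. Most differences were small. The median absolute difference was 0.185 on the log2 scale, against a median SD of 0.0974 between the hairpins of a side and 0.0884 between the columns of a hairpin. At least 1.5-fold differences were found for 572 called genes higher and 268 lower, and at least 4-fold differences for 4 higher and 5 lower. With CPM taken on library totals, 4180 genes were called higher and 1927 lower, so the calls split 68.4% higher, against 48.4% with joint scaling. That scaling moved the median difference over all genes to 0.0814, against −0.00693 with joint scaling, so small differences depend on it.

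Among the genes named, those farthest above on the Slpi-directed side were Mgp itself, Chac1, Csn3 and Trib3. Chac1, an enzyme that degrades glutathione, stood at 22.4, 84.4, 114 and 59.3 CPM in Slpi-directed lines, against 10.6, 11.3, 10.5 and 10.6 CPM in Mgp-directed lines (difference 2.42 ± 0.34, SE; limma, adjusted p = 7.86e-05). The Mgp-directed lines were nearly level, and the Slpi-directed lines were widely spread. Csn3, the milk protein kappa-casein, stood at 28.5, 31.6, 42.6 and 33.0 CPM, against 5.75, 7.86, 4.61 and 7.03 CPM (2.35 ± 0.14, SE; adjusted p = 2.73e-07). Here both sides were tight. Car9, a carbonic anhydrase induced by low oxygen, stood at 112, 114, 126 and 102 CPM, against 41.5, 39.4, 32.9 and 34.8 CPM (1.60 ± 0.08, SE; adjusted p = 4.81e-08). Prune2 (1.63 ± 0.12), the membrane skeleton protein adducin beta, Add2 (1.60 ± 0.18), and the kinesin Kif21b (1.59 ± 0.13) were higher as well. Aldh1l2, a mitochondrial enzyme of folate metabolism, was 3.70-fold higher (1.89 ± 0.14).

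Farthest below besides Slpi was Prl2c2, a placental growth factor of the prolactin family, at 3.90, 3.02, 3.05 and 3.29 CPM in Slpi-directed lines, against 43.1, 34.7, 64.0 and 44.5 CPM in Mgp-directed lines (difference −3.61 ± 0.14, SE; limma, adjusted p = 4.12e-09). Its relative Prl2c1 was at 0.0398 to 0.268 CPM, against 1.11 to 2.85 CPM (−1.92 ± 0.20). The family has near-identical copies, so reads could be split among them and the single-gene counts are uncertain. The same holds for Gsta1 (−1.71 ± 0.15), a glutathione transferase whose close relative Gm3776 was lower too (−1.49).

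Dio2, a deiodinase that activates thyroid hormone, stood at 7.70, 7.81, 5.38 and 8.94 CPM in Slpi-directed lines, against 36.1, 29.0, 35.2 and 31.3 CPM in Mgp-directed lines (−2.09 ± 0.12, SE; limma, adjusted p = 1.97e-07). Cyp1b1, a cytochrome P450 of the aryl hydrocarbon response, was 3.96-fold lower (−1.99 ± 0.11). Cck, the peptide hormone cholecystokinin, stood at 22.0, 30.5, 20.4 and 30.7 CPM, against 91.3, 79.0, 117 and 103 CPM (−1.91 ± 0.14; adjusted p = 8.94e-07). None of these overlapped between the sides. Havcr2, which encodes the receptor TIM-3, was also lower (−1.80 ± 0.15), and so was Pax8, a paired-box transcription factor, which was at most 0.443 CPM in any Slpi-directed line (−1.77 ± 0.25). Pax8, Prl2c1 and Gsta1 were each under 1 CPM in every Slpi-directed line. They reached the minimum mean of 1 CPM for testing only through the Mgp-directed side, so their place among the largest differences depends on that side.

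**Figure D3:**
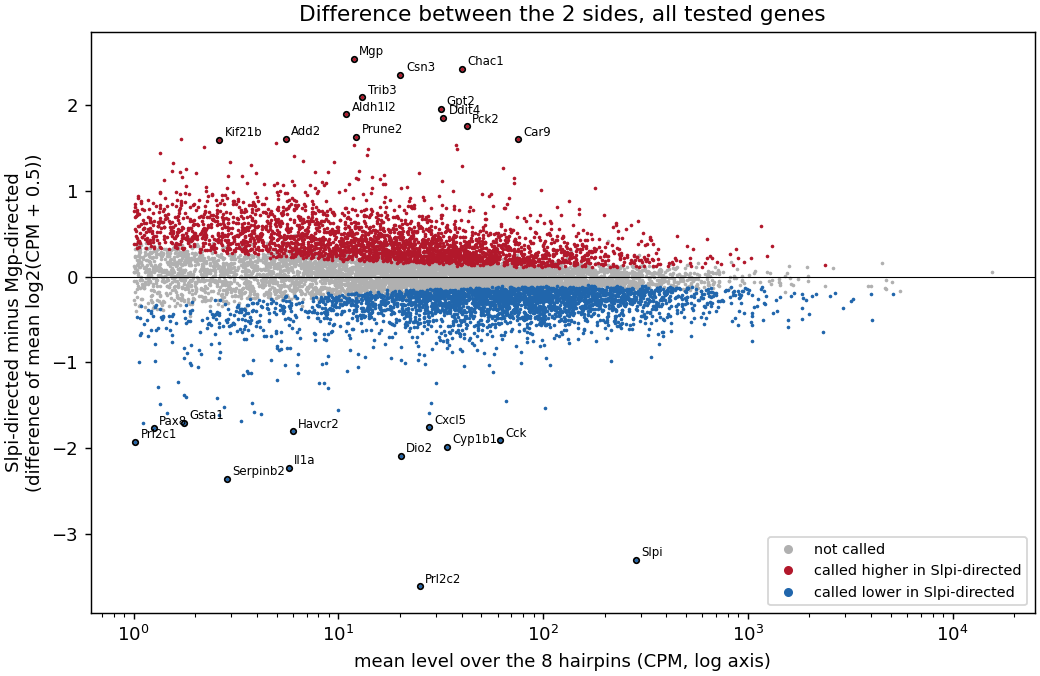
Difference between the sides (Slpi-directed minus Mgp-directed, log2(CPM + 0.5)) against mean level (CPM, log axis) for 11756 tested genes; red and blue points are genes called higher and lower on the Slpi-directed side, grey points were not called, and circled genes are the 2 targets and the largest named differences. Prl2c2 at −3.61 and Slpi at −3.30 lie lowest among the circled genes, and Mgp at 2.54 lies highest.

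Lists of genes with a known role were then read against the background of 24.7% higher and 26.3% lower. The lists were chosen with results of these data known, so their counts describe the lines and are not a test of the list.

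Among the lists, the largest share of higher members was found for the integrated stress response, the program that the transcription factor ATF4 drives when translation initiation is curbed by stress or lack of amino acids. Of 23 tested members, 17 rose on the Slpi-directed side, none fell and 6 did not pass, with a median difference of 0.65 against −0.00693 over all tested genes. The members that passed include regulators, enzymes of amino acid metabolism and transporters. Trib3, a pseudokinase that feeds back on the pathway, stood at 6.79, 22.0, 41.0 and 18.8 CPM in Slpi-directed lines, against 3.36, 4.59, 4.22 and 3.90 CPM in Mgp-directed lines (2.09 ± 0.36, SE; limma, adjusted p = 3.64e-04). Gpt2, mitochondrial alanine transaminase, stood at 28.5, 50.6, 79.2 and 46.5 CPM, against 11.3, 11.9, 12.1 and 13.0 CPM (1.95 ± 0.21; adjusted p = 1.04e-05). Ddit4, an inhibitor of mTORC1, stood at 23.03, 46.5, 87.7 and 49.9 CPM, against 11.8, 10.3, 9.57 and 21.3 CPM (1.85 ± 0.31; adjusted p = 2.90e-04). The 2 sides did not overlap for any of these 3 genes.

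Pck2, mitochondrial phosphoenolpyruvate carboxykinase, was 3.36-fold higher (1.75 ± 0.20). Asns, asparagine synthetase, stood at 183, 239, 331 and 218 CPM in Slpi-directed lines, against 112, 121, 126 and 104 CPM in Mgp-directed lines (1.03 ± 0.13). Sesn2 (1.40), a stress-induced regulator of mTORC1, Nupr1 (1.29), a small stress-induced chromatin protein, and Stc2 (1.18), a secreted glycoprotein, were higher too. So was Slc7a11, the cystine-glutamate exchanger, at 47.8, 60.8, 114 and 68.5 CPM, against 33.2, 35.8, 42.6 and 32.0 CPM (0.94 ± 0.19). The mRNA of Atf4 itself stood at 286, 398, 499 and 381 CPM, against 259, 286, 280 and 289 CPM (0.46 ± 0.12; adjusted p = 0.00541), with Slpi1U1 inside the Mgp-directed range. Ddit3, which encodes CHOP, did not pass (0.41 ± 0.18; adjusted p = 0.0786), and Phgdh, the entry enzyme of serine synthesis, was at −0.06 ± 0.05 (adjusted p = 0.379).

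The 4 Slpi-directed lines were ordered alike across these genes. In all 17 higher members Slpi1U1 was the lowest Slpi-directed line, and in 16 of them Slpi2 was the highest. Set against the mean of the Mgp-directed lines, the median difference over the 17 was 0.60 in Slpi1U1, 1.04 in Slpi1U2, 1.67 in Slpi2 and 0.93 in Slpi4. Slpi1U1 still lay above all 4 Mgp-directed lines in 14 of the 17. The Slpi level was lowest in Slpi1U1 and next lowest in Slpi2, within a narrow range of 46.5 to 59.8 CPM over the Slpi-directed lines. Whether the order of the lines relates to it was not tested. With any 1 hairpin left out, 17 to 20 members were called higher and 0 lower.

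ATF4 binds with C/EBP partners to composite elements that hold the letters TGATGNAA. Both strands of the RefSeq promoters (GRCm38.p6, 250 bases before to 50 after each start) were searched for these letters alone. A match was found for 8 of the 22 list members with a promoter (36.4%), against 1219 of 27025 genes with a promoter in all (4.51%). Since the list was drawn up from genes of the ATF4 program, this contrast describes the list and is no result about these lines. Slc7a11 held 2 matches and counts as 1 member, and the match in Trib3 lies after the start site. Among the 17 higher members 6 had a match, Trib3 included, and among 4 tested members with a promoter that did not pass, 1 had. The stretches around the match before the start site are shown for 5 higher members, in the direction of the gene, since these genes moved together; capitals mark the match on either strand. A match is a description of the sequence and was not tied to binding in these cells.
Chac1, chr2:119351023-119351082, plus strand: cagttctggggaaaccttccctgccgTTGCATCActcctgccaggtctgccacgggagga
Slc7a11, chr3:50443646-50443705, minus strand: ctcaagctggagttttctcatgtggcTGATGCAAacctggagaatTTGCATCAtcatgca
Asns, chr6:7693210-7693258, minus strand: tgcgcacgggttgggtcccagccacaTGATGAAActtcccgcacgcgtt
Nupr1, chr7:126625547-126625606, minus strand: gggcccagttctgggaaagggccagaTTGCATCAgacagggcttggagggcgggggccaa
Pck2, chr14:55540137-55540196, plus strand: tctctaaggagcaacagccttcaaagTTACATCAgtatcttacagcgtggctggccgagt

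The chaperones of the endoplasmic reticulum (ER), which fold secreted proteins and are induced by other arms of the unfolded protein response, went the other way. Of 19 tested genes 15 fell on the Slpi-directed side, 2 rose and 2 did not pass, with a median difference of −0.30. Calr, calreticulin, stood at 218, 209, 210 and 225 CPM in Slpi-directed lines, against 305, 330, 347 and 294 CPM in Mgp-directed lines (−0.56 ± 0.06, SE; limma, adjusted p = 6.38e-06). Hyou1 (−0.56 ± 0.05) and Dnajb11 (−0.52 ± 0.04), both partners of the main chaperone BiP, were lower too. Hspa5, which encodes BiP, stood at 2950, 2779, 2733 and 2960 CPM, against 3633, 3408, 3901 and 3037 CPM (−0.29 ± 0.07; adjusted p = 0.00587). All 15 lower genes lay below every Mgp-directed line in each Slpi-directed line. The same held for 2621 of all 3092 genes called lower, so it is common among called genes. The members that rose were Herpud1, an ER-associated degradation factor, at 27.7, 47.5, 63.1 and 40.5 CPM, against 20.1, 17.1, 21.1 and 20.3 CPM (1.11 ± 0.18), and Xbp1, a transcription factor of the unfolded protein response (0.41 ± 0.05). Herpud1 had the same order of Slpi-directed lines as the ATF4 list, with Slpi1U1 lowest and Slpi2 highest.

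Genes that low oxygen induces through HIF, together with glycolytic enzymes, rose in 17 of 26 tested members and fell in 2, with a median difference of 0.30. Besides Car9 the higher ones included Bnip3, a mitophagy receptor, at 73.8, 73.3, 74.4 and 72.9 CPM in Slpi-directed lines, against 37.2, 40.4, 38.0 and 34.5 CPM in Mgp-directed lines (0.97 ± 0.05, SE; limma, adjusted p = 1.53e-07). Vegfa, the angiogenic growth factor, stood at 39.4, 49.3, 56.1 and 41.9 CPM, against 26.7, 26.9, 27.9 and 25.2 CPM (0.78 ± 0.09; adjusted p = 2.00e-05). Pfkp, a phosphofructokinase, was 1.65-fold higher (0.72 ± 0.07), and Pdk1, which inhibits pyruvate dehydrogenase, was also higher (0.49 ± 0.04). In all 17 higher genes each Slpi-directed line lay above every Mgp-directed line, as it did in 2400 of all 2902 genes called higher. Slc2a1, the glucose transporter GLUT1, did not pass (0.05 ± 0.04; adjusted p = 0.329), nor did Ldha, lactate dehydrogenase A (−0.11 ± 0.06; adjusted p = 0.155). Pkm, pyruvate kinase, was lower (−0.23 ± 0.05).

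Subunits of the respiratory chain moved oppositely in count, with 15 of 28 lower and 1 higher (median −0.18). Cycs, cytochrome c, stood at 64.2, 70.8, 67.0 and 68.4 CPM in Slpi-directed lines, against 98.5, 103, 104 and 105 CPM in Mgp-directed lines (−0.60 ± 0.05, SE; limma, adjusted p = 1.73e-06). Ndufb8 and Ndufa9 of complex I (−0.38 and −0.33) and Sdhb of complex II (−0.31) were lower by less. With library totals 9 of the 28 were lower.

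**Figure D4:**
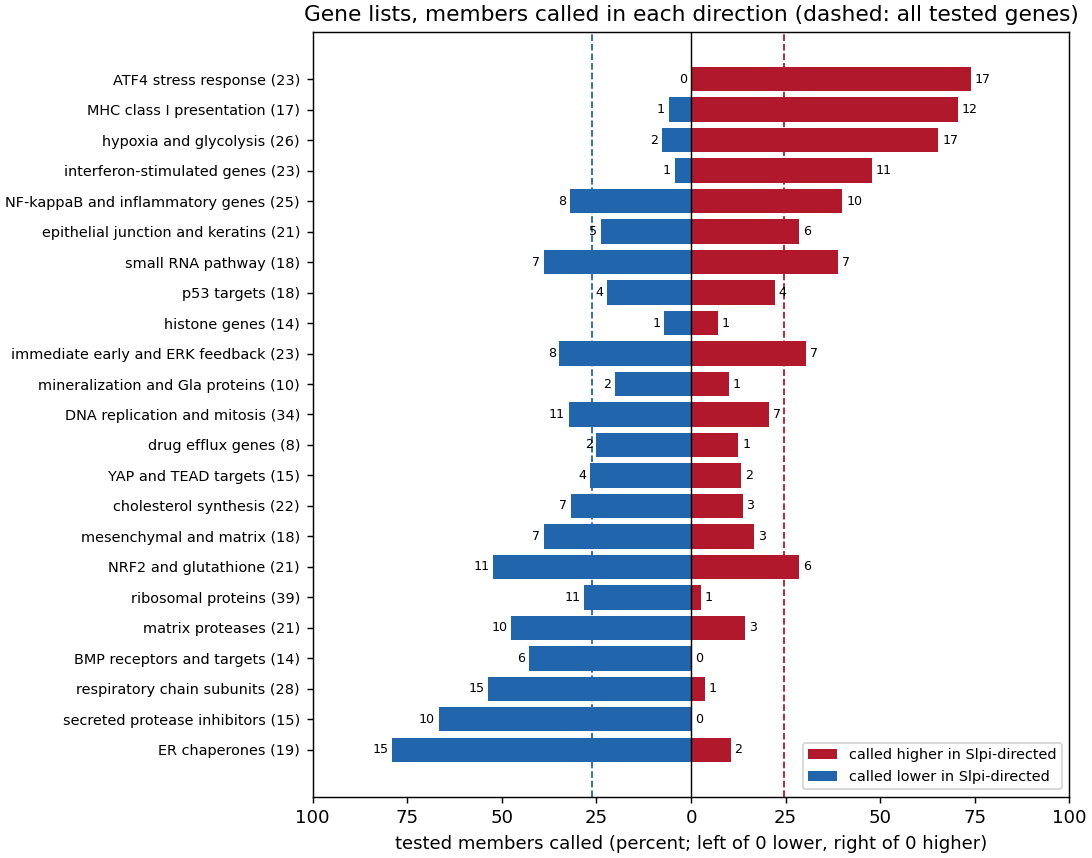
Share of tested members called higher (right, red) and lower (left, blue) on the Slpi-directed side for 23 gene lists, in percent, with the number tested in brackets and the number called beside each bar; dashed lines mark the shares over all tested genes, 24.7% and 26.3%. The ATF4 stress response (17 of 23 higher) and ER chaperones (15 of 19 lower) stand at the ends.

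Genes of antigen presentation on MHC class I rose in 12 of 17 tested members and fell in 1 (median 0.28). Psmb9, an immunoproteasome subunit, stood at 9.86, 10.8, 10.7 and 11.3 CPM in Slpi-directed lines, against 3.77, 5.89, 4.99 and 6.16 CPM in Mgp-directed lines (0.99 ± 0.12, SE; limma, adjusted p = 2.72e-05). Its partner Psmb8 was 1.52-fold higher (0.61 ± 0.11). The peptide transporter subunits Tap1 (0.73 ± 0.11) and Tap2 (0.62 ± 0.11) were higher, each without overlap. Psmb9, Tap1, Psmb8 and Tap2 lie in a single stretch (chr17:34182030-34216321), so they are not examples from separate loci. The heavy chain gene H2-K1 was higher by less (0.32 ± 0.06), and its near-identical relatives make single heavy chain counts uncertain. The light chain gene B2m was at −0.03 ± 0.06 (adjusted p = 0.665), and the member that fell was Calr, given above.

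Interferon-stimulated genes, a partly overlapping program of antiviral genes, rose in 11 of 23 tested members and fell in 1 (median 0.21). The median depended on the scaling. It was 0.30 with library totals (13 higher) and 0.13 with quantile normalization (10 higher). On the deposited values with column medians made equal it was 0.03 (9 higher). Oasl2, a relative of the oligoadenylate synthetases, stood at 21.3, 19.7, 21.2 and 24.3 CPM in Slpi-directed lines, against 9.99, 13.3, 13.1 and 10.4 CPM in Mgp-directed lines (0.87 ± 0.10, SE; limma, adjusted p = 1.70e-05). The transcription factors Stat2 (0.68 ± 0.07) and Irf1 (0.66 ± 0.08) and the RNA-sensing helicase family member Dhx58 (0.62 ± 0.09) were higher as well. All 11 lay above every Mgp-directed line in each Slpi-directed line, as did 2400 of all 2902 genes called higher. Ifitm3, which blocks the entry of viruses at cell membranes, was lower, at 190, 182, 186 and 223 CPM, against 272, 302, 298 and 273 CPM (−0.55 ± 0.06). The 7 leukocyte markers summed to 6.54 to 8.11 CPM in Slpi-directed lines and 4.96 to 5.35 CPM in Mgp-directed lines, almost all of it Cd68, while Ptprc, which encodes CD45, was at most 0.244 CPM in any line. The part of these markers in the interferon and MHC counts was not tested.

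NF-kappaB and inflammatory genes were called in both directions. Of 25 tested members 10 rose and 8 fell (median −0.12), and with library totals 11 rose and 6 fell. The members farthest below 0 were Il1a, Cxcl5, Ccl2 and Lcn2, which all encode secreted proteins. Il1a, the cytokine interleukin-1 alpha, stood at 1.34, 1.46, 1.69 and 0.619 CPM in Slpi-directed lines, against 8.48, 3.33, 24.6 and 4.28 CPM in Mgp-directed lines (−2.23 ± 0.44, SE; limma, adjusted p = 9.62e-04). Cxcl5, a neutrophil-attracting chemokine, stood at 10.8, 11.1, 8.92 and 12.6 CPM, against 35.5, 24.7, 94.6 and 23.3 CPM (−1.75 ± 0.32; adjusted p = 5.56e-04). Ccl2, a monocyte-attracting chemokine, stood at 13.8, 9.57, 8.37 and 23.6 CPM, against 32.1, 35.2, 69.0 and 30.6 CPM (−1.59 ± 0.29; adjusted p = 5.01e-04). Lcn2, the iron-siderophore carrier lipocalin 2, was 2.36-fold lower (−1.24 ± 0.26).

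Mgp1U3 was the highest Mgp-directed line in 6 of the 8 lower members, and the sides still did not overlap in the 4 genes given. Ptgs2, which encodes cyclooxygenase-2, stood at 807, 865, 811 and 635 CPM in Slpi-directed lines, against 1496, 1008, 1569 and 1207 CPM in Mgp-directed lines (−0.75 ± 0.12). The IkappaB genes, whose products hold NF-kappaB in the cytoplasm, did not move together. Nfkbia, which encodes IkappaB alpha, stood at 20.9, 19.99, 18.2 and 20.2 CPM, against 11.6, 11.3, 14.3 and 12.5 CPM (0.65 ± 0.08; limma, adjusted p = 2.72e-05). Nfkbie was higher as well (0.60 ± 0.07), and Nfkbib was lower (−0.23 ± 0.07; adjusted p = 0.0170). The other higher members were Birc3, an inhibitor of apoptosis (0.53 ± 0.07), the signalling adaptor Traf1 (0.47), the cytokines Csf2 (0.42) and Lif (0.38), the adhesion molecule Icam1 (0.41), the deubiquitinase gene Tnfaip3 (0.31), the NF-kappaB subunit Relb (0.29) and Tnfaip2 (0.13). The cytokine genes Ccl5 (−0.24) and Csf3 (−0.17) did not pass.

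**Figure D5:**
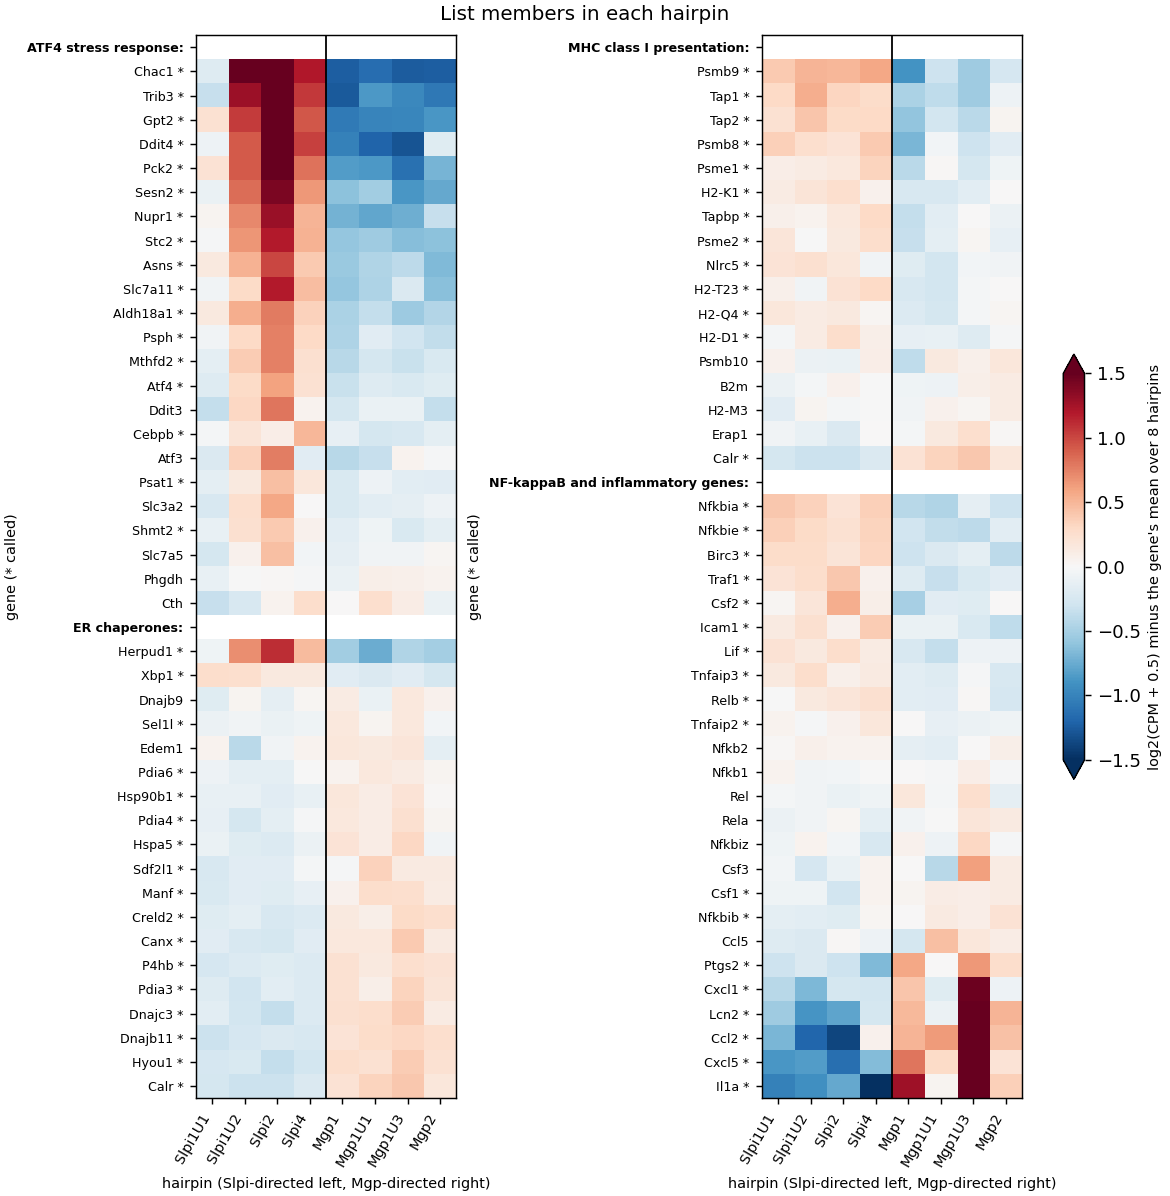
Level of each tested member of 4 gene lists in the 8 hairpins, as log2(CPM + 0.5) minus the mean of the gene over the hairpins (red above, blue below, colours saturate at 1.5); Slpi-directed hairpins are left of the line and Mgp-directed hairpins right, and an asterisk marks a called gene. Of the 17 called members of the ATF4 list, Slpi2 is the highest Slpi-directed hairpin in 16 and Slpi1U1 the lowest in all 17. Il1a, Cxcl5, Ccl2, Lcn2 and Cxcl1 are highest in Mgp1U3. Saturated colours do not show the order of the most extreme values.

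Secreted and intracellular inhibitors of proteases, the family to which Slpi belongs by function, fell in 10 of 15 tested members, Slpi included, and rose in none (median −0.22). With library totals 5 were lower and 1 higher. Serpinb2, plasminogen activator inhibitor 2, stood at 0.789, 0.448, 0.469 and 0.568 CPM in Slpi-directed lines, against 4.54, 2.94, 6.17 and 6.95 CPM in Mgp-directed lines (−2.35 ± 0.21, SE; limma, adjusted p = 3.18e-06). Serpinb2 reached the minimum mean of 1 CPM for testing only through the Mgp-directed side. Serpinb5, maspin, was 2.07-fold lower (−1.05 ± 0.15), and Timp1, an inhibitor of metalloproteinases, 1.47-fold lower (−0.56 ± 0.06). Wfdc2, which like Slpi has whey acidic protein domains, did not pass, at 658, 619, 666 and 685 CPM, against 584, 620, 648 and 652 CPM (0.07 ± 0.05; adjusted p = 0.276).

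Extracellular proteases and related enzymes were lower in 10 of 21 tested members and higher in 3 (median −0.12). Mmp13, a collagenase, stood at 1.72, 1.09, 1.45 and 2.41 CPM in Slpi-directed lines, against 5.37, 3.24, 10.7 and 4.49 CPM in Mgp-directed lines (−1.47 ± 0.27, SE; limma, adjusted p = 5.36e-04). Mmp3, stromelysin-1, was 2.01-fold lower with overlapping lines (adjusted p = 0.00186), and Sulf2, an extracellular heparan sulfatase, was lower without overlap (−1.05 ± 0.11). The membrane-bound metalloprotease Adam8 was higher, at 50.4, 47.9, 50.7 and 39.9 CPM, against 28.6, 25.97, 24.9 and 25.97 CPM (0.82 ± 0.08).

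For Mgp, the related genes were those of mineralization and of BMP signalling. Of 10 tested mineralization genes, Mgp among them, Mgp alone was higher and 2 were lower, the phosphate transporters Slc20a1 (−0.72 ± 0.06) and Slc20a2 (−0.19 ± 0.04). These shares, 10% and 20%, were below the 24.7% and 26.3% over all tested genes. Ibsp, with a mean under 1 CPM, was not tested. It stood at 1.08 to 1.92 CPM in Slpi-directed lines and 0.275 to 0.543 CPM in Mgp-directed lines. The other untested members were under 1 CPM in every line. The vitamin K cycle genes needed for Gla proteins did not pass, with Ggcx, the carboxylase, at 0.10 ± 0.07 (limma, adjusted p = 0.287) and Vkorc1, the reductase, at 0.06 ± 0.09 (adjusted p = 0.617). Without Slpi4, 4 mineralization genes were lower.

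Of 14 tested BMP receptors and targets, 6 fell and none rose (median −0.11). With library totals 4 fell and 3 rose. Id3, an inhibitor of differentiation and a classic BMP target, stood at 27.5, 24.6, 24.9 and 30.5 CPM in Slpi-directed lines, against 54.5, 53.01, 60.7 and 54.9 CPM in Mgp-directed lines (−1.04 ± 0.07, SE; limma, adjusted p = 6.53e-07). Id2 was lower too, at 18.2, 15.5, 16.5 and 17.1 CPM, against 27.6, 39.1, 42.2 and 22.1 CPM (−0.90 ± 0.16). The inhibitory Smad7 was lower by less (−0.33 ± 0.07). Id1 did not pass (−0.30 ± 0.13; adjusted p = 0.0620), and the Notch and BMP target Hey1 passed narrowly (−0.37 ± 0.13; adjusted p = 0.0279) and not when Mgp1, Mgp1U3, Mgp2, Slpi2 or Slpi4 was left out (adjusted p = 0.0555 to 0.0834).

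Because all lines depend on the small RNA pathway, its own genes were read as well. Of 18 tested members 7 were higher and 7 lower (median −0.06), and with library totals 8 were higher and 3 lower. The nuclear export factor Xpo5 was lower, at 64.7, 64.0, 59.7 and 59.1 CPM in Slpi-directed lines, against 84.4, 79.2, 88.0 and 81.1 CPM in Mgp-directed lines (−0.42 ± 0.05, SE; limma, adjusted p = 2.60e-05). Drosha, the nuclear processing enzyme (−0.17), and Dicer1, which cuts hairpins in the cytoplasm (−0.23), were lower by less. Without Slpi2 or without Mgp1U3, 4 members were lower. The higher ones included the Argonaute genes Ago4 (0.91 ± 0.11) and Ago1 (0.36 ± 0.05), the helicase Mov10 (0.62 ± 0.09) and Prkra (0.43 ± 0.07), a Dicer partner. Ago2, which encodes the Argonaute that cuts paired mRNAs, stood at 677, 680, 597 and 683 CPM, against 738, 757, 691 and 614 CPM and did not pass (−0.09 ± 0.07; adjusted p = 0.307).

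Epithelial genes were called in both directions, with 6 of 21 tested members higher and 5 lower (median −0.01). These shares, 28.6% and 23.8%, were close to the 24.7% and 26.3% over all tested genes. The balance turned with the processing, to 8 higher and 3 lower with library totals, 9 and 5 with quantile normalization, and 4 and 7 with the trend on GC content removed. The simple-epithelium keratin Krt19 stood at 66.0, 75.0, 85.0 and 67.1 CPM in Slpi-directed lines, against 41.3, 40.6, 36.3 and 46.0 CPM in Mgp-directed lines (0.83 ± 0.08, SE; limma, adjusted p = 8.00e-06). Krt7 (0.60) and Krt18 (0.44) were also higher. Krt14, a basal keratin, stood at 8.99, 9.12, 9.55 and 8.68 CPM, against 17.1, 16.8, 20.8 and 17.0 CPM (−0.94 ± 0.08; adjusted p = 2.43e-06). The desmosomal plakophilin Pkp1 (−1.03 ± 0.13) and the splicing factor Esrp1 (−0.88 ± 0.14) were lower.

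Mesenchymal and matrix genes were higher in 3 and lower in 7 of 18 tested members (median −0.15). The collagen VI subunit Col6a2 (−1.15 ± 0.20) and thrombospondin 1, Thbs1 (−0.56 ± 0.10), were lower, and Tgfbi, an adhesion protein induced by TGF-beta, was higher (0.77 ± 0.14). S100a4, a calcium-binding protein, was lower (−0.49 ± 0.08), with an overlapping gene model that makes its count uncertain. The 7 fibroblast markers summed to 41.5 to 51.2 CPM in Slpi-directed lines and 28.9 to 35.4 CPM in Mgp-directed lines, nearly all of it Pdgfra, while Col1a1, Col3a1, Dcn and Lum were each under 1 CPM. Their part in the mesenchymal counts was not tested.

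Replication and mitosis genes gave 7 higher (20.6%) and 11 lower (32.4%) of 34 tested (median −0.06), against 24.7% and 26.3% over all tested genes. With quantile normalization 12 were higher and 5 lower, so the direction depends on the scaling. Without Slpi1U1, Slpi1U2, Slpi2 or Mgp1, 4 were higher. Cyclin E1, Ccne1, which drives entry into S phase, stood at 5.66, 5.81, 4.03 and 5.81 CPM in Slpi-directed lines, against 9.69, 12.4, 12.5 and 10.3 CPM in Mgp-directed lines (−1.02 ± 0.12, SE; limma, adjusted p = 2.05e-05). Ccne2 (−0.46 ± 0.10), the mitotic cyclin Ccnb1 (−0.38 ± 0.05) and the replication licensing factor Cdc6 (−0.34 ± 0.05) were lower as well. The proliferation marker Mki67 was slightly higher (0.14 ± 0.06; adjusted p = 0.0469).

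The p53 targets gave 4 higher and 4 lower of 18 tested (median −0.01). These shares, 22.2% each, were below the 24.7% higher and 26.3% lower over all tested genes. Gadd45a, a stress-induced growth arrest gene, stood at 16.7, 25.7, 39.8 and 28.5 CPM in Slpi-directed lines, against 12.5, 11.9, 13.2 and 13.3 CPM in Mgp-directed lines (1.03 ± 0.18, SE; limma, adjusted p = 3.86e-04). Like the ATF4 list, it was lowest in Slpi1U1 and highest in Slpi2. The cyclin-dependent kinase inhibitor Cdkn1a (0.45) and the repair polymerase Polk (0.77 ± 0.08) were higher. The desmosomal gene Perp (−0.72 ± 0.09) and the nuclease Aen (−0.70 ± 0.08) were lower.

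Antioxidant genes of the NRF2 program and glutathione metabolism gave 6 higher and 11 lower of 21 tested (median −0.13), but 8 higher and 5 lower with library totals. Fewer were lower without Slpi1U1 or Mgp1U3 (7) and without Slpi1U2 or Slpi2 (5). The higher members besides Slc7a11 included Gstm1 (0.85 ± 0.15), and the lower ones Gsta4 (−0.80 ± 0.10) and Gsto1 (−0.59 ± 0.07), all glutathione transferases. The heme oxygenase gene Hmox1 (−0.33 ± 0.11) and Nqo1 (−0.25 ± 0.10), standard NRF2 targets, were lower with overlapping lines.

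Cholesterol synthesis genes gave 3 higher (13.6%) and 7 lower (31.8%) of 22 tested (median −0.14), against 24.7% and 26.3% over all tested genes. The synthesis enzyme Hsd17b7 stood at 72.2, 67.6, 56.3 and 72.1 CPM in Slpi-directed lines, against 116, 96.4, 110 and 102 CPM in Mgp-directed lines (−0.66 ± 0.08, SE; limma, adjusted p = 2.31e-05). The sterol reductase Tm7sf2 was higher (0.48 ± 0.10).

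Immediate early and ERK feedback genes gave 7 higher and 8 lower of 23 tested (median 0.09). These shares were 30.4% and 34.8%, against 24.7% and 26.3% over all tested genes. With library totals 10 were higher and 5 lower. The transcription factors Egr2 (1.03 ± 0.17), Jund (0.58 ± 0.16) and Junb (0.55 ± 0.11) were higher and the phosphatase Dusp1 was lower (−0.53 ± 0.07). Targets of the YAP and TEAD factors gave 2 higher (13.3%) and 4 lower (26.7%) of 15, near or below the shares over all tested genes. With library totals 3 were higher and 2 lower. Ctgf, connective tissue growth factor, was at −0.74 ± 0.10 and Crim1 at −0.27 ± 0.07. Nuak2 was at 0.77 ± 0.08 and Ankrd1 at 0.33 ± 0.06.

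Of 8 drug efflux genes 1 rose (12.5%) and 2 fell (25%), against 24.7% and 26.3% over all tested genes. The transporter Abcc3 was 2.33-fold higher (1.22 ± 0.14, SE; limma, adjusted p = 1.53e-05), and Abcc4 (−0.54 ± 0.06) and Abcb1b (−0.26 ± 0.06) were lower.

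Ribosomal protein genes gave 1 higher (2.56%) and 11 lower (28.2%) of 39 tested (median −0.10), against 24.7% and 26.3% over all tested genes. With quantile normalization 7 were higher and 3 lower. Without Mgp1 20 were lower, and without Slpi1U1 or without Mgp1U1 7 were lower. Rps14 (−0.34 ± 0.10) and Rps19 (−0.31 ± 0.08) were lower, and Rpl30, near 1 CPM, passed narrowly (−0.47 ± 0.16; limma, adjusted p = 0.0280) and missed the threshold without Mgp1U1, Mgp1U3, Slpi1U1 or Slpi2. Many pseudogenes resemble these genes, so their single counts are uncertain. Of 14 histone genes the linker histone variant H1f0 was higher (0.59 ± 0.11) and the replacement histone gene H3f3b lower (−0.27 ± 0.08). Each direction held 1 of 14 (7.14%), below the 24.7% higher and 26.3% lower over all tested genes. Among 49 tested small nucleolar and Cajal body RNA genes, 29 were lower and 0 higher with limma.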

How the data were processed

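The authors deposited 1 table per target, whose values are variance-stabilized and approach log2 of scaled reads for abundant genes. The submitters' processing notes name mm10, Bowtie2, HTSeq and DESeq, without versions; which annotation and strand setting were used is not given in the sources used here. Per the labels' protocols, 100 ng of RNA was amplified with NuGEN Ovation RNA-Seq V2, sheared to 200 bp and read in 76 bp reads.

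Each table's smallest value (7.916 in the Slpi table, 8.123 in the Mgp table) is shared by genes without reads. With it the transform was inverted, and 100% of values came out as whole reads within 0.001. All 20 columns of 23480 genes were then scaled jointly by median ratios to CPM, and the mean log2(CPM + 0.5) of 2 columns gave a hairpin value. Genes with a mean of at least 1 CPM over 16 columns were tested with limma 3.58.1 (R 4.3.3), with a mean-dependent prior, 4 against 4 hairpins, with Benjamini-Hochberg adjustment over 11756 genes. Slpi and Mgp were also tested with an exact permutation test over hairpins (scipy 1.17.1). The method was tested on simulated data in which few genes differed, equally in both directions. That simulation is no test of the joint scaling where 51% of genes are called, as here. Alternatives changed the scaling, pseudocount, minimum, model and hairpins or columns used. Nothing in the labels says that columns came from separate cultures.

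The members, gene lists and naming rule were chosen with earlier results of these data known. Named were both targets, the 12 called genes farthest above and the 12 farthest below 0 whose hairpins do not overlap (passing over accession-style names and small RNA genes), up to 4 called members per list, and the targets' neighbours. Other genes in the text were added after their values were seen. Some genes the rule names are not reported here. Gene positions are from RefSeq GRCm38.p6.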

Additional observations from a re-analysis of the deposited data

Results flagged for a closer look

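Among the 4 hairpins of a side, 12 of 206 groups of values held a hairpin that stood apart by Dixon's criterion (the ratio of its gap to the range above the 95% critical value), and chance alone flags about 1 in 20 groups. On the Slpi-directed side Slpi2 was lowest for Mov10 (ratio 0.938), Ccne1 (0.892) and Ccne2 (0.874). Slpi4 was highest for Ccnb1 (0.832), Egr2 (0.909) and Gstm1 (0.898), with Egr2 at 5.09 CPM in Slpi4 and 3.56 to 3.67 CPM in the other Slpi-directed lines. Slpi1U1 was lowest for Nuak2 (0.841).

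On the Mgp-directed side Mgp1U3 was highest for Krt14 (0.917) and Abcc4 (0.963), Mgp1 for Nuak2 (0.915) and Mgp1U1 for Chac1 (0.879), while Mgp2 was lowest for Crim1 (0.837). For Chac1 the gap was small in size, 11.3 CPM in Mgp1U1 and 10.5 to 10.6 CPM in the other Mgp-directed lines.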

How the results depend on the processing

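The Slpi and Mgp differences kept their direction and passed the threshold under every alternative. Of the 103 named genes, 96 were called under each alternative that tested them, 7 lost the call under at least 1 (Slc20a2, Hey1, Jund, H3f3b, Rpl30, Rps14 and Arhgdib) and 0 reversed. With CPM on library totals 1927 genes were called lower, against 3092. With a minimum of 10 CPM 1877 of 8813 tested genes were called higher, against 2902 of 11756, so fewer genes were also tested. The other alternatives kept both counts within 1.5 times. Without 1 hairpin, 2529 to 2835 genes were higher and 2731 to 3033 lower, and 4670 of the 5994 called genes (77.9%) were called the same way in all 8 such fits. Using column 2 alone gave 2537 higher and 2832 lower, and column 1 alone 2312 and 2477. Removing a trend with GC content, chosen after seeing the data, gave 2640 higher and 3267 lower; the median GC content was 50.9% for higher, 48.4% for lower and 49.6% for other tested genes. With the replicate block over 16 columns, 2931 were higher and 3210 lower. The differences between columns 1 and 2 correlated between hairpins at −0.224 to 0.278 (median 0.0106, 6 of 28 pairs over 0.1). This check cannot exclude that the column numbers pair some of the hairpins.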
